A study of Homo sapiens with 26 samples.

Results

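The genes described here were CXCL8, CXCL1, CXCL2, CXCL3 and CCL20, which encode chemokines, and IL6, LIF, IL1A and IL1B, which encode cytokines. They were chosen by name, with earlier results of these data known, and all 9 were measured among the 19775 genes tested. Counts of these genes set against all genes are therefore a description. Each gene was followed through its brightest probe set, the one with the highest mean log2 intensity over all 26 arrays among those annotated to a single gene. The 9 genes had 14 such probe sets: CXCL2 had 3, CXCL8, IL1A and IL1B had 2 each, and the other 5 genes had 1. Where a gene had more than 1, the others are given beside the main results.

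Chemokines are small secreted proteins that guide migrating leukocytes through G-protein-coupled receptors. CXCL8, CXCL1, CXCL2 and CXCL3 attract neutrophils through CXCR2, which CXCL8 shares with CXCR1, and CCL20 attracts T cells, B cells and dendritic cells through CCR6. IL6 and LIF signal through receptors that share the IL6ST subunit and activate STAT3, while interleukin-1 alpha and beta bind IL1R1 and activate NF-kB. In epithelial cells NF-kB and AP-1 are known activators of many of these genes.

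The study measured gene expression with Affymetrix HG-U133 Plus 2.0 arrays in MDA-MB-468, a basal, triple-negative human breast cancer cell line whose Notch signalling was blocked or activated. Notch receptors are cleaved by gamma-secretase after a ligand binds, which releases an intracellular domain that acts on transcription with RBPJ. DAPT is a gamma-secretase inhibitor, A4 is a blocking antibody against NOTCH3, A13 is an activating antibody against NOTCH3, and JAG1 is a Notch ligand. The comparisons asked what happens to transcripts when the pathway is blocked, and when NOTCH3 or the receptors of JAG1 are activated.

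For the antagonism experiment 2500000 cells were plated, grown for 40 h and treated for 24 h. Its 3 groups received control IgG (an anti-gD antibody) at 10 µg/ml with 0.05% DMSO on 3 arrays, 5 µM DAPT with the same IgG at 10 µg/ml on 3 arrays, or A4 at 10 µg/ml with 0.05% DMSO on 2 arrays. For the agonism experiment 6250000 cells were plated, with 3 arrays in each of 6 groups. The DMSO group started in 0.05% DMSO and the other 5 groups in 5 µM DAPT for 16 h, and all were then washed into medium for 2 h. After that step the groups received DMSO, 5 µM DAPT, soluble IgG at 20 µg/ml, A13 at 20 µg/ml, Fc-coated beads or beads coated with JAG1-Fc. DMSO and DAPT were added again at 22 h, and cells were harvested at 24 h. The IgG and Fc bead groups were therefore washout controls: cells whose gamma-secretase had been inhibited and then released. The model was 1 cell line, and the labels do not state that replicate arrays stem from separate cultures, and DMSO treatment is described for 1 plate. The p-values therefore measure only the spread between these arrays, which may be technical.

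Antagonism arrays had medians of 7.60 to 7.65 on the log2 scale and agonism arrays had medians of 6.84 to 6.88, so levels were compared only within an experiment. Intensities of different probe sets do not give the relative amounts of different transcripts, and genes were not compared with each other by level. Control IgG array 2 of the antagonism experiment stood apart: the SD of its log2 differences from its group mates was 0.284, against 0.139 to 0.239 for the other 25 arrays. The Notch target NRARP rose by 1.90 on the log2 scale with A13 over IgG and by 1.01 with JAG1 beads over Fc beads, and MYC fell by 1.15 with A4 and by 1.34 with DAPT in the antagonism experiment. The basal markers KRT5 and EGFR lay at or above percentile 94.8 of the genes on the antagonism arrays, and KRT14 lay between percentiles 54.4 and 79.3 on the agonism arrays. Of the leukocyte markers, 3 of 4 for monocytes, 2 of 3 for neutrophils and 2 of 3 for T cells were below the median on every array. PTPRC, the pan-leukocyte marker CD45, lay between percentiles 6.3 and 13.3 on all arrays, which give no detection calls. With A13 the monocyte marker CD14 fell by 0.72 and the neutrophil marker CSF3R by 0.83, and 0 of 3 T cell markers passed by limma, 0 of them at an unadjusted p under 0.05. Breast lineage markers moved in the agonist comparisons in which CCL20 fell. KRT5 and KRT14 rose by 1.3 and 1.39 with A13 and by 0.93 and 1.14 with JAG1 beads. EGFR rose by 0.27 with A13, and its difference of 0.12 with JAG1 beads did not pass. The luminal marker FOXA1 fell by 0.90 with A13 and by 0.50 with JAG1 beads. With A4, where CCL20 passed, KRT5, KRT14 and FOXA1 did not pass. With DAPT against DMSO in the agonism experiment KRT5 and KRT14 fell by 0.51 and 0.81, while the basal marker EGFR rose by 0.22. FOXA1 rose by 0.75 there, and CCL20 changed by -0.01. The part of these markers in the results was not tested, and arrays of whole cultures cannot tell fewer cells of a type from less RNA per cell.

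The promoter windows printed here belong to CXCL8, CXCL1 and CCL20, which fell together with JAG1 beads, and to CXCL2, whose window resembles that of CXCL1 and which did not pass there. They run from 250 bases before to 50 bases after the transcription start and come from RefSeq, build GRCh38.p14. Capitals mark matches to the NF-kB consensus, to GGAATTTCC or to the AP-1 motif TGANTCA. All were searched on both strands, and matches to the first 2 overlap in CXCL1 and CXCL2. CXCL8 lies at chr4:73740319-73740618 on the plus strand, CXCL1 at chr4:73869143-73869442 on the plus strand, CXCL2 at chr4:74099146-74099445 on the minus strand and CCL20 at chr2:227813592-227813891 on the plus strand. Each sequence is given 5′ to 3′ along its gene.
CXCL8: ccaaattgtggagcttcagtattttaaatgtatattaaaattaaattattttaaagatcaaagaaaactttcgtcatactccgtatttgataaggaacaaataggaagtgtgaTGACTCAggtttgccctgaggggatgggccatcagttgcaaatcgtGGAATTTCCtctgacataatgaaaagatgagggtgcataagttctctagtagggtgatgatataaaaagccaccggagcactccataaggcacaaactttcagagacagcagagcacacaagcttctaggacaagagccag
CXCL1: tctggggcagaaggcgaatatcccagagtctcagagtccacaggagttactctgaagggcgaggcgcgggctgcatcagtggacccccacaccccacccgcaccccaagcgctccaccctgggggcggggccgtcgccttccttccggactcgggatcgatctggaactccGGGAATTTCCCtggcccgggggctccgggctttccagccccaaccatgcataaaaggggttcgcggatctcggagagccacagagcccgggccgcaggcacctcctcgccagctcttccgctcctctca
CXCL2: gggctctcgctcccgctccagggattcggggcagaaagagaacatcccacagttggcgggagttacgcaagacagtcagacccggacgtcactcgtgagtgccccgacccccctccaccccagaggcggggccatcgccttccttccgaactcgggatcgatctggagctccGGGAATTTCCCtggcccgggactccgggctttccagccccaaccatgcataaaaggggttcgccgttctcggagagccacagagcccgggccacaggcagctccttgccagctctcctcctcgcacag
CCL20: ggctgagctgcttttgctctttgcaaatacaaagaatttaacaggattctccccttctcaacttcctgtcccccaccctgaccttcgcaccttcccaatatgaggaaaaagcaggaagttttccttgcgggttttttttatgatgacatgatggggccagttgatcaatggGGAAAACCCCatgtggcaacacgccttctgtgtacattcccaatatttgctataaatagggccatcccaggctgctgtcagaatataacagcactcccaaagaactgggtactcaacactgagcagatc

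RefSeq windows were found for 8 of the 9 genes. CXCL8 held GGAATTTCC from position -91 and the AP-1 match TGACTCA from position -137, counted from the start. CXCL1, CXCL2 and CXCL3, which sit with CXCL8 on chromosome 4, held the NF-kB match at nearly the same place, with first bases between -79 and -77. CCL20 held the consensus on the minus strand at -79, and IL6 held it at -73. IL1A held 2 AP-1 matches, at -12 and 39 from the first of its annotated starts, and IL1B held no match to either motif. The letters TGGGAA, the core bound by RBPJ, stood in the CCL20 window at -159 and -43 and in the IL6 window at -67, and in 24.0% of all windows. Of 35116 windows of this length, 5.91% held the NF-kB consensus, 0.461% held GGAATTTCC and 7.71% held TGANTCA. The CXCL1 window was 82.5% identical to that of CXCL3 and 71.3% identical to that of CXCL2. A match describes letters and is not evidence of binding.

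Blocking NOTCH3 with A4 left CCL20 higher than in control IgG, and CXCL8 and CXCL1 had larger differences that did not pass. A gene passed where limma's adjusted p over all 19775 genes was under 0.05. With A4, 1 of the 9 genes passed, upward, against 0.0455% of all genes. CXCL8, CXCL1, CXCL3 and CCL20 had both A4 arrays above all control arrays, which held for 12.6% of all genes. With DAPT in the same experiment 0 of 9 passed by limma, against 0.354% of all genes. At an unadjusted p under 0.05 it was 1 of 9, CCL20, against 13% of all genes. Between A4 and DAPT 0 of 9 passed by limma, against 0% of all genes, and 5 of 9 had an unadjusted p under 0.05, against 8.23% of all genes. Both drug groups were set against the same control arrays.

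CCL20 was lower with both agonists than with their own controls, and CXCL8 and LIF were higher with Fc beads than with soluble IgG. The Fc bead and IgG groups differ by the beads and by the soluble IgG, which cannot be told apart here. On the agonism arrays CCL20 lay low, between percentiles 13.9 and 29.7 of the genes. CXCL1 lay between 15.5 and 27.9, IL6 between 16.5 and 21.8, and CXCL3 at or below 18.5. CXCL8 lay at or above 50.5, and LIF had a median of 53.6. Whether CCL20, CXCL1, IL6 and CXCL3 stood above background was not tested. The share of all genes that passed in the same direction follows each count. Continued DAPT against DMSO left 2 of 9 lower (8.31%), washout into IgG against DAPT left 1 of 9 higher (4.15%), and IgG against DMSO left 2 of 9 lower (12.6%). A13 against IgG left 2 higher (5.68%) and 1 lower (9.02%), and A13 against DAPT left 4 higher (12%). Fc beads against soluble IgG left 3 higher (1.64%), JAG1 beads against Fc beads left 3 lower (5.14%), and JAG1 beads against A13 left 1 higher (4.72%). The IgG arrays served both the A13 and the Fc bead comparison, and the Fc bead arrays served both the Fc bead and the JAG1 comparison.

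**Figure D1:**
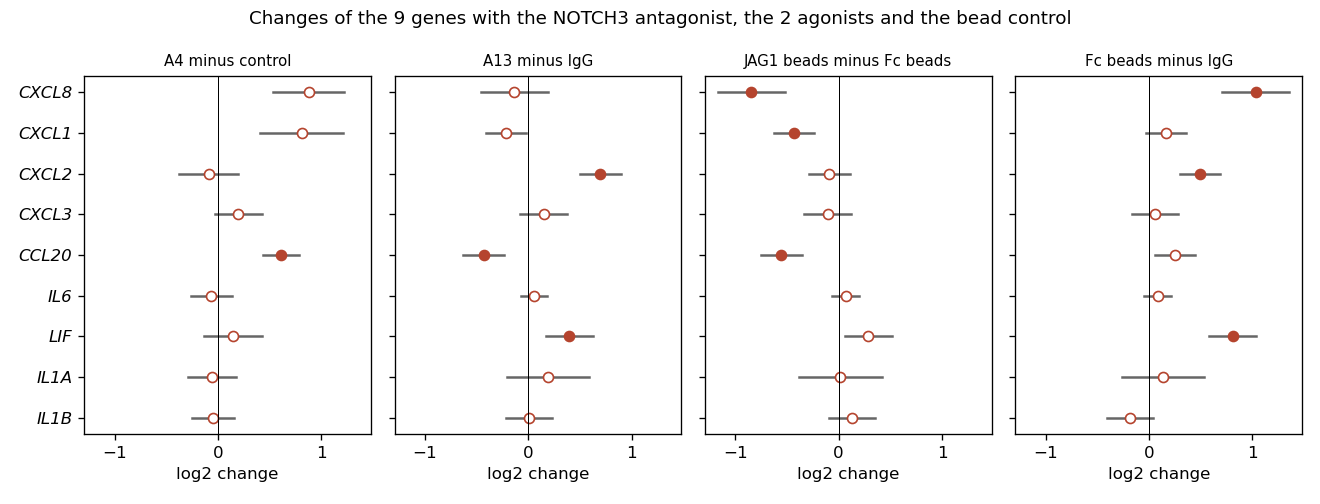
Log2 changes of the 9 genes with 95% confidence intervals from limma in 4 comparisons: A4 minus control, A13 minus IgG, JAG1 beads minus Fc beads and Fc beads minus IgG. Filled points passed an adjusted p of 0.05. CXCL8 sits at 1.03 for Fc beads minus IgG and at -0.84 for JAG1 beads minus Fc beads.

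CXCL8, the neutrophil attractant also known as interleukin-8, was high in the A4 group and in the Fc bead group. On the antagonism arrays its log2 intensity was 8.98, 8.67 and 9.09 with control IgG, 8.64, 8.83 and 9.11 with DAPT, and 9.81 and 9.78 with A4. Both A4 arrays lay above every other array of that experiment. The difference from control was 0.88 ± 0.15 (SE; 3 and 2 arrays), with a 95% interval of 0.54 to 1.22, and did not pass (adjusted p = 0.104, limma). It passed in 5 of 13 alternatives, among them the fit without control IgG array 2, at 0.76 with an adjusted p of 0.0347. The second CXCL8 probe set gave 0.45 ± 0.11 for the same comparison.

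Across the agonism groups CXCL8 read 8.42, 8.29 and 8.88 with DMSO, 8.61, 8.20 and 8.21 with DAPT, and 8.19, 7.90 and 8.26 with IgG. It read 7.98, 8.03 and 7.93 with A13, 9.0, 8.94 and 9.49 with Fc beads, and 8.22, 8.31 and 8.37 with JAG1 beads. The Fc bead arrays lay above all others, and the remaining neighbours in the order DMSO, DAPT, JAG1 beads, IgG and A13 overlapped. CXCL8 rose 2.04-fold with Fc beads over IgG, by 1.03 ± 0.15 (adjusted p = 0.00129), and the second probe set rose by 0.87. It fell by 0.84 ± 0.15 with JAG1 beads against Fc beads (adjusted p = 0.00168), and the second probe set fell by 0.91. Both calls held under every alternative that was run for this gene. The names of the 2 CXCL8 sets end in _x_at and _s_at, so the alternative without such sets could not be run.

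With the soluble antibody A13 the CXCL8 difference from IgG was -0.14 ± 0.15, with an interval of -0.46 to 0.19 (adjusted p = 0.664). The A13 and JAG1 differences, each from its own control, were 0.71 ± 0.22 apart, and this interaction did not pass (adjusted p = 0.453). Of the 9 genes 1 passed the interaction, CXCL2, against 0.0657% of all genes in that direction. CXCL8 fell by 0.42 ± 0.15 with IgG washout against DMSO (adjusted p = 0.0486). That call was lost without DMSO array 3, where the difference was -0.24, and without DMSO array 1, IgG array 1 or IgG array 2. It was also lost in the second probe set, at -0.37 (adjusted p = 0.0796, limma). The same held with only the compared groups in the fit (adjusted p = 0.0672) and with every probe set tested (adjusted p = 0.0618).

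CXCL1, a close relative of CXCL8 that also acts through CXCR2, read 6.70, 6.94 and 6.65 with control IgG, 6.68, 7.32 and 7.26 with DAPT, and 7.58 and 7.56 with A4. The A4 arrays were again the highest, and DAPT array 1 sat within the range of the controls while the other 2 lay above it. The difference of A4 from control was 0.81 ± 0.18 (adjusted p = 0.160), and that of DAPT from control was 0.32 ± 0.16 (adjusted p = 0.433). It read 6.07, 6.01 and 6.21 with DMSO and 6.01, 5.91 and 5.82 with DAPT in the agonism experiment. After washout CXCL1 read 6.30, 6.10 and 6.19 with IgG, 5.96, 5.96 and 6.02 with A13, 6.50, 6.38 and 6.20 with Fc beads, and 5.95, 5.72 and 6.10 with JAG1 beads. The JAG1 arrays all lay below the Fc bead arrays. CXCL1 fell by 0.43 ± 0.09 with JAG1 beads (adjusted p = 0.00608), and was 0.22 ± 0.09 lower with A13 than with IgG (adjusted p = 0.140). With only the Fc and JAG1 bead groups in the fit the adjusted p for JAG1 was 0.0612.

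CXCL3, which with CXCL1 and CXCL2 forms a closely related trio, had smaller differences. It read 6.24, 6.16 and 6.32 with control IgG, 5.93, 6.20 and 6.22 with DAPT, and 6.47 and 6.42 with A4, where both A4 arrays were the highest. The A4 difference was 0.20 ± 0.10 (adjusted p = 0.597). Its agonism values were 5.53, 5.52 and 5.46 with DMSO, 5.58, 5.31 and 5.49 with DAPT, 5.61, 5.67 and 5.65 with IgG, 5.91, 5.83 and 5.64 with A13, 5.92, 5.40 and 5.78 with Fc beads, and 5.55, 5.50 and 5.73 with JAG1 beads. All neighbouring groups in the order of means overlapped. CXCL3 rose by 0.33 ± 0.11 with A13 over DAPT (adjusted p = 0.0247) and passed in no other comparison. That call was lost without A13 array 1 or 2 or DAPT array 2, with values from 0.26 to 0.32.

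CXCL2 passed in several agonism comparisons, in its brightest probe set only. That set read 6.29, 6.00 and 6.25 with DMSO, 5.67, 5.96 and 5.69 with DAPT, 6.12, 6.14 and 6.27 with IgG, 6.75, 6.95 and 6.92 with A13, 6.68, 6.64 and 6.70 with Fc beads, and 6.41, 6.59 and 6.73 with JAG1 beads. The DAPT arrays were lowest and the A13 arrays highest. CXCL2 fell by 0.41 ± 0.09 with DAPT against DMSO (adjusted p = 0.00466) and rose by 0.40 ± 0.09 on IgG washout (adjusted p = 0.01). It rose by 0.70 ± 0.09 with A13 over IgG (adjusted p = 4.26e-05) and by 0.49 ± 0.09 with Fc beads over IgG (adjusted p = 0.00885). The probe sets ranked 2 and 3 by brightness gave -0.22 ± 0.10 and 0.08 ± 0.07 for A13 against IgG, and 0.02 and 0.05 for Fc beads against IgG. They gave 0.03 and 0.02 for DAPT against DMSO, and 0.09 and -0.08 for IgG washout against DAPT. The brightest set, like that of CXCL8, has a name ending in _x_at. Affymetrix gives this ending to sets whose probes can match other transcripts, so the CXCL2 values are uncertain. The IgG washout call was lost without DAPT array 1 (adjusted p = 0.0607) and the Fc bead call without IgG array 1 (adjusted p = 0.0571). On the antagonism arrays it read 6.84, 6.71 and 6.93 with control IgG, 6.73, 6.45 and 6.82 with DAPT, and 6.85 and 6.63 with A4, and the groups overlapped. The A4 difference was -0.09 ± 0.13 (adjusted p = 0.883).

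**Figure D2:**
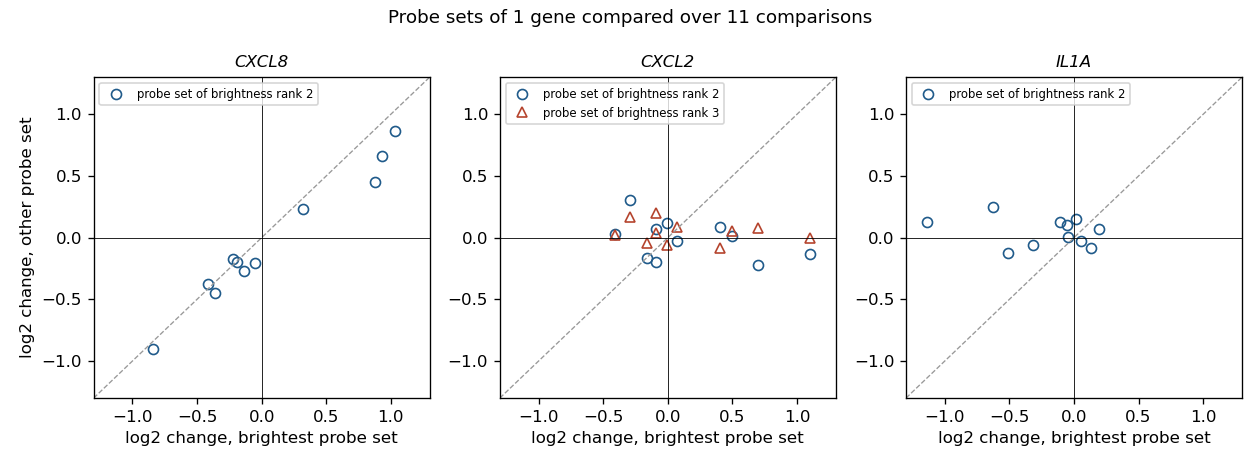
Log2 change in 11 comparisons for the brightest probe set (horizontal axis) and for the other probe sets (vertical axis) of CXCL8, CXCL2 and IL1A, with the dashed line marking equal change. The second CXCL8 set changes in the same direction as the brightest in all 11, by less in some (0.45 against 0.88 for A4 minus control), while the other sets of CXCL2 and IL1A stay between -0.22 and 0.30.

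CCL20, which draws CCR6-bearing lymphocytes and dendritic cells to epithelia, was the member that passed with A4. It read 7.07, 7.13 and 7.22 with control IgG, 7.35, 7.34 and 7.30 with DAPT, and 7.70 and 7.80 with A4. The 3 groups did not overlap, with DAPT between the others. CCL20 rose by 0.61 ± 0.08, or 1.53-fold, with A4 (adjusted p = 0.0327), and was 0.19 ± 0.07 higher with DAPT (adjusted p = 0.283). The A4 value lay between 0.56 and 0.68 in 13 alternatives, of which 6 kept the call. It was lost with only the compared groups in the fit (adjusted p = 0.254), when genes were read by second-brightest probe sets (0.0613) or every probe set was tested (0.106), without either A4 array, without control array 1 (adjusted p = 0.153) or without control array 3 (adjusted p = 0.052).

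Under the agonism treatments CCL20 read 5.89, 5.98 and 5.72 with DMSO, 5.89, 5.77 and 5.88 with DAPT, and 6.11, 6.03 and 6.12 with IgG. It read 5.66, 5.59 and 5.71 with A13, 6.60, 6.15 and 6.26 with Fc beads, and 5.88, 5.75 and 5.71 with JAG1 beads. Both washout controls lay above the other groups, and both agonists lay below their own controls without overlap. Neighbours in the order of means DMSO, DAPT, JAG1 beads and A13 overlapped. A13 against DAPT gave -0.19 ± 0.09 (adjusted p = 0.148, limma). IgG gave 0.24 ± 0.09 against DAPT (adjusted p = 0.127) and 0.23 ± 0.09 against DMSO (adjusted p = 0.079), and none of these passed. CCL20 fell by 0.43 ± 0.09 with A13 against IgG (adjusted p = 0.00348) and by 0.56 ± 0.09 with JAG1 beads against Fc beads (adjusted p = 0.000901). These 2 comparisons share no arrays, and both calls held under the 14 alternatives that could be run. CCL20 was too dim to stay in the test when low-intensity genes were left out. It had 1 probe set, so the probe-set choices could not change its values. The A13 and JAG1 changes were 0.13 ± 0.13 apart, with an interval of -0.15 to 0.40 (adjusted p = 0.948). Fc beads against IgG gave 0.25 ± 0.09, which did not pass (adjusted p = 0.201).

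**Figure D3:**
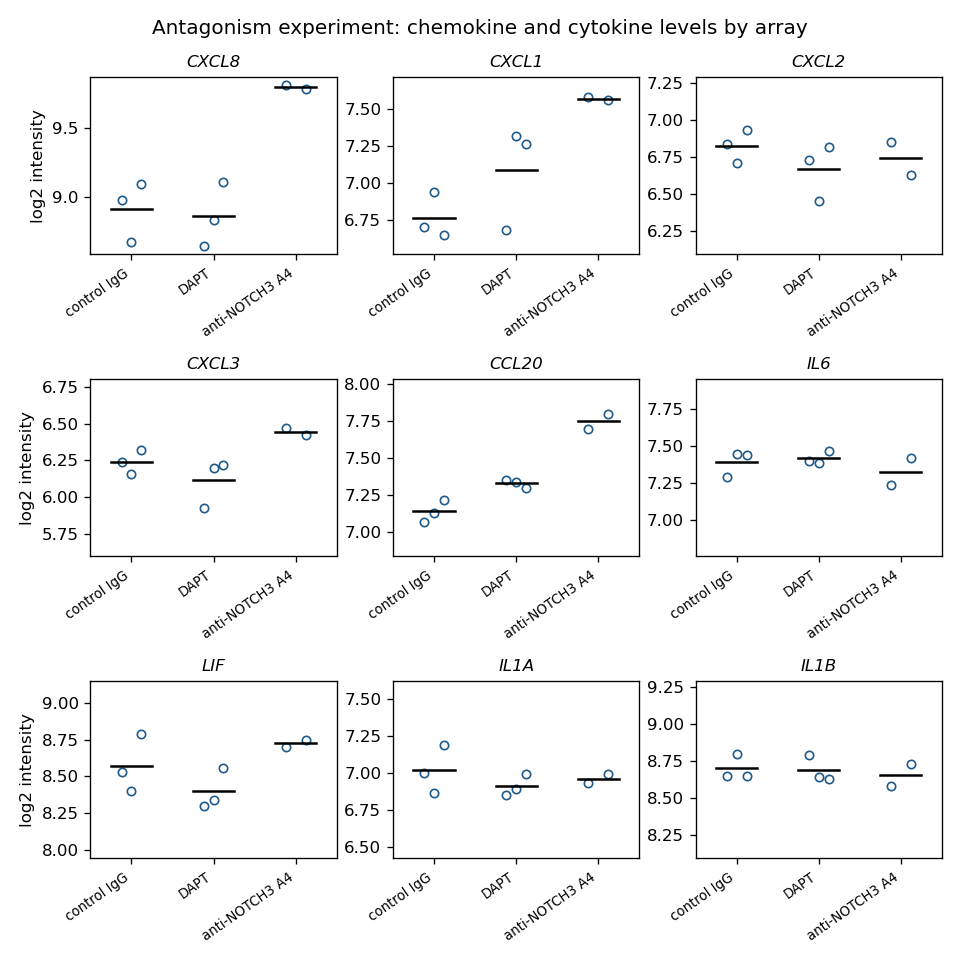
Log2 intensity of the 9 genes on each antagonism array (points) with group means (bars), for control IgG, DAPT and A4, each panel with its own axis range. The A4 points of CXCL8, at 9.81 and 9.78, and of CCL20, at 7.70 and 7.80, lie above the other 2 groups.

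LIF, a cytokine of the IL-6 family, was lowest in continued DAPT and highest with JAG1 beads. On the agonism arrays it read 7.74, 7.70 and 7.93 with DMSO, 7.55, 7.50 and 7.60 with DAPT, 7.82, 8.06 and 7.78 with IgG, 8.11, 8.55 and 8.20 with A13, 8.72, 8.59 and 8.78 with Fc beads, and 9.03, 8.81 and 9.11 with JAG1 beads. From A13 upward each group lay apart from the next, and IgG and DMSO overlapped. LIF rose by 0.81 ± 0.11 with Fc beads over IgG (adjusted p = 0.000566), and by 0.40 ± 0.11 with A13 over IgG (adjusted p = 0.0163). JAG1 beads over Fc beads gave 0.29 ± 0.11, which did not pass (adjusted p = 0.122).

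JAG1 beads stood 0.70 ± 0.11 above A13 (adjusted p = 0.000761), groups that differ by the beads as well as by the agonist. A13 stood 0.73 ± 0.11 above DAPT (adjusted p = 3.39e-05). The A13 call over IgG was lost without IgG array 1, IgG array 3 or A13 array 2, with values of 0.36, 0.35 and 0.27, while the Fc bead, JAG1 over A13 and A13 over DAPT calls held under every alternative run. In the antagonism experiment LIF read 8.53, 8.40 and 8.79 with control IgG, 8.30, 8.34 and 8.56 with DAPT, and 8.70 and 8.75 with A4. A4 and control overlapped, with a difference of 0.15 ± 0.12 (adjusted p = 0.778).

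IL6, the inflammatory cytokine that gives the family its name, stayed within a narrow range. It read 7.29, 7.45 and 7.44 with control IgG, 7.40, 7.39 and 7.47 with DAPT, and 7.24 and 7.42 with A4, and the groups overlapped. Its agonism values were 5.90, 5.89 and 5.98 with DMSO, 5.79, 5.87 and 5.86 with DAPT, 6.0, 6.05 and 5.89 with IgG, 6.0, 6.06 and 6.04 with A13, 5.98, 6.17 and 6.02 with Fc beads, and 6.11, 6.09 and 6.18 with JAG1 beads. The DAPT arrays were lowest, and the group means spanned 0.29. IL6 rose by 0.20 ± 0.06 with A13 over DAPT (adjusted p = 0.0188). The call was lost without DAPT array 1 or A13 array 2 and with a trended, robust variance.

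**Figure D4:**
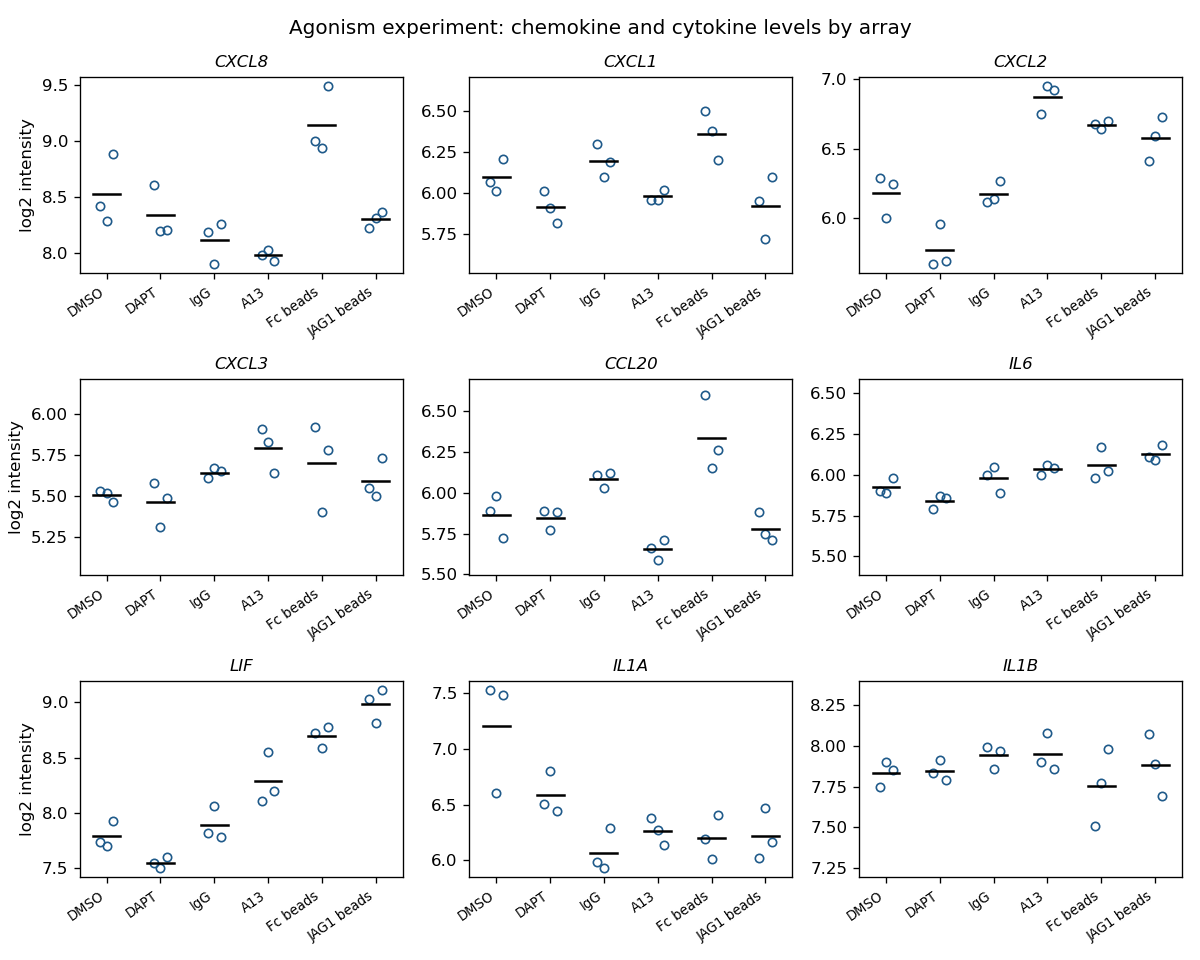
Log2 intensity of the 9 genes on each agonism array (points) with group means (bars) for DMSO, DAPT, IgG, A13, Fc beads and JAG1 beads, each panel with its own axis range. LIF group means run from 7.55 with DAPT to 8.98 with JAG1 beads, and CXCL8 is highest with Fc beads at 9.15.

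IL1A, the interleukin-1 form that is active without processing, was high on DMSO arrays 1 and 3. It read 7.53, 6.61 and 7.49 with DMSO, 6.51, 6.80 and 6.44 with DAPT, 5.99, 5.93 and 6.29 with IgG, 6.38, 6.27 and 6.14 with A13, 6.19, 6.01 and 6.41 with Fc beads, and 6.02, 6.47 and 6.17 with JAG1 beads. DMSO array 2 lay among the DAPT arrays. IL1A fell by 1.14 ± 0.19 with IgG against DMSO (adjusted p = 0.000208) and by 0.63 ± 0.19 with DAPT against DMSO (adjusted p = 0.0241), and the latter was lost without DMSO array 1 or 3 or DAPT array 1 or 3, with values from -0.59 to -0.47. The second IL1A probe set gave 0.12 ± 0.10 and 0.25 ± 0.10 for the same 2 comparisons, neither of which passed, so the fall rests on 1 probe set. Against its own control neither agonist passed, with differences of 0.19 ± 0.19 (interval -0.21 to 0.59) for A13 and 0.02 ± 0.19 (interval -0.38 to 0.42) for JAG1 beads. In the antagonism experiment all 3 groups overlapped, with values from 6.85 to 7.19.

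IL1B, which is cleaved by caspase-1 before release, did not pass in any of the 13 comparisons. Its group means spanned 0.05 on the antagonism arrays and 0.19 on the agonism arrays, and all neighbouring groups overlapped. The array values ran from 8.58 to 8.80 in the first experiment and from 7.51 to 8.08 in the second. The second IL1B probe set also passed in no comparison when every probe set was tested.

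DAPT was used in both experiments, with different plating and exposure, and with IgG added in the antagonism experiment. Its effect on CXCL1 differed between them by 0.51 ± 0.18 and that on IL1A by 0.52 ± 0.25, with adjusted p-values of 0.0868 and 0.220. Of the 9 genes 0 passed this test by limma, against 6.12% of all genes. At an unadjusted p under 0.05 there were 2 of 9, near the share of all genes, 22%.

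Receptors of these ligands, and the related gene SIGIRR, which is not a receptor for them, were read on the same arrays. By their median percentile among all genes of an array, first on antagonism and then on agonism arrays, IL6ST lay at 88.5 and 88.4, SIGIRR at 83.3 and 82.5, IL1R1 at 54.2 and 52.5, and CXCR2 at 2.5 and 3.0. IL1R1 fell by 0.70 ± 0.09 with A13 and by 0.52 ± 0.09 with JAG1 beads. With A13, 1 of the 11 genes of this list rose, IL1RAP by 0.31 ± 0.08, and 2 fell, IL1R1 and SIGIRR. Of all genes, 5.68% rose and 9.02% fell with A13. The receptor antagonist IL1RN, which blocks IL1R1, rose by 0.65 ± 0.07 with DAPT over DMSO, fell by 0.82 ± 0.07 with A13 and fell by 0.51 ± 0.07 with JAG1 beads.

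Other chemokines were chosen by family and 27 were measured. With A13, 4 fell and 0 rose (median change over the 27 of -0.11), against 9.02% and 5.68% of all genes. CXCL10 fell by 0.48 ± 0.09, CXCL17 by 0.40 ± 0.06, CXCL16 by 0.31 ± 0.07 and CCL22 by 0.24 ± 0.08. With JAG1 beads 2 fell, CCL22 by 0.34 ± 0.08 and CXCL17 by 0.30 ± 0.06, and 2 rose, CCL11 by 0.27 ± 0.08 and CCL26 by 0.26 ± 0.07. Of all 19775 genes, 5.14% fell and 587 rose with JAG1 beads. With A4 and with Fc beads 0 of 27 passed by limma, and 1 and 3 of them had an unadjusted p under 0.05, against 9.28% and 14.6% of all genes. Of 27 other cytokines, 0 rose and 3 fell with A13, and 0 rose and 2 fell with JAG1 beads. These counts are near the shares of all genes that fell, 9.02% with A13 and 5.14% with JAG1 beads.

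NF-kB, a known activator of these chemokines, was followed through 20 genes of interleukin-1 processing and NF-kB signalling and 18 of its feedback and target genes. With Fc beads 2 of the 20 and 4 of the 18 rose and none fell, where 1.64% of all genes rose. Among them RELB rose by 0.67 ± 0.09, NFKB2 by 0.50 ± 0.09 and TNFAIP3, an NF-kB inhibitor, by 0.33 ± 0.07. With A13, 0 of 20 rose and 5 fell, and 1 of 18 rose and 5 fell, where 5.68% of all genes rose and 9.02% fell. The gene that rose was IER3, by 0.69 ± 0.06 with A13, and it also rose with JAG1 beads, by 0.48 ± 0.06. NFKBIZ, a nuclear NF-kB cofactor, fell by 1.16 ± 0.13 with A13 and by 0.97 ± 0.13 with JAG1 beads. LCN2 fell by 1.06 ± 0.07 and by 0.93 ± 0.07, and PYCARD, an inflammasome adaptor, fell by 0.57 ± 0.06 and by 0.58 ± 0.06. With A4, 0 of the 20 and 0 of the 18 passed by limma, and 4 and 5 had an unadjusted p under 0.05, against 9.28% of all genes.

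A list of AP-1 and C/EBP factors held 14 genes, counting EGR1, which belongs to neither family. With Fc beads over IgG 7 of the 14 rose, EGR1 among them, and 0 fell, with a median change of 0.35. Of all genes 1.64% rose there. EGR1 rose by 0.74 ± 0.09, ATF3 by 0.62 ± 0.12, FOSL2 by 0.38 ± 0.08 and FOSL1 by 0.38 ± 0.10. With JAG1 beads over A13, groups that also differ by the beads, 10 of the 14 rose, against 4.72% of all genes. CEBPD rose by 0.59 ± 0.07 there. With JAG1 beads over Fc beads, CEBPD (-0.05 ± 0.07), EGR1 (0.01 ± 0.09) and FOSL2 (0.02 ± 0.08) did not pass. In that comparison JUN and CEBPG rose by 0.34 ± 0.10 and 0.34 ± 0.08, and JUNB and BATF fell by 0.29 ± 0.07 and 0.36 ± 0.07. Of 18 genes of IL-6 and LIF signalling, 4 rose and 6 fell with A13, against 5.68% and 9.02% of all genes. SERPINA3 rose by 0.57 ± 0.07 and FGG fell by 1.80 ± 0.07 there.

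The genes most like each member over the 26 arrays, by Pearson r after each experiment's mean was removed, were taken from 9884 candidates and are a description. LIF was most like GPNMB (r = 0.939) and DUSP1 was the third at 0.923, CCL20 was most like STRA6 (r = 0.815), CXCL2 most like EPB41L4A-AS1 (r = 0.889), and CXCL8 most like LOC100996740 (r = 0.732). IL1A was most like SFXN3 (r = 0.938), IL6 like MUS81 (r = 0.855), IL1B like JAK3 (r = 0.762), CXCL1 like H2AC25 (r = 0.704) and CXCL3 like LRATD1 (r = 0.67). These values share the arrays and the treatments.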

How the data were processed

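The authors' deposited values are intensities on a linear scale from 26 Affymetrix HG-U133 Plus 2.0 arrays. Per the submitters' processing notes, RMA and R 2.10 were named, without their roles. The analysis plan assumed log2 values, so the deposited intensities were converted to log2. Of 54675 probe sets, 41097 had a single gene in the platform annotation, 1801 had several and 11777 had none; the brightest of each gene was kept, giving 19775 genes. Each experiment was fitted separately with all its groups (R 4.3.3, limma 3.58.1, functions lmFit, contrasts.fit and eBayes without trend), with Benjamini-Hochberg adjustment over all genes and a threshold of 0.05. Comparisons between experiments used all 26 arrays in 1 fit. The script was tested on simulated data. Genes named are all members and, from each list and comparison, up to 4 passing genes with the largest change. Members and lists were chosen with earlier results of these data known. Alternatives were other scaling, filters, probe sets, variance models and leaving out arrays. The number of arrays limits the precision, and no coordinates were taken from the files.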

Additional observations from a re-analysis of the deposited data

Results flagged for a closer look

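The A13 change of CXCL2 (from IgG) and its JAG1 bead change (from Fc beads) differed by 0.79 ± 0.13 on the log2 scale (limma, adjusted p = 0.0215), the only one of the 9 genes to pass, against 0.182% of all genes. CXCL2 rose with A13 by 0.70 and changed by -0.09 with JAG1 beads. The difference was -0.29 in the second-brightest probe set and did not pass there. It also no longer passed when any 1 of 6 arrays was left out: IgG array 1 or 2, A13 array 2, JAG1 array 1 or 2, or Fc bead array 3, with values from 0.71 to 0.80.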

How the results depend on the processing

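Of 117 changes (9 genes in 13 comparisons), 21 passed and 7 of these held under every alternative run: CCL20 with A13 over IgG and with JAG1 over Fc beads, CXCL8 with Fc beads over IgG and with JAG1 over Fc beads, and LIF with A13 over DAPT, Fc beads over IgG and JAG1 beads over A13. Array weights raised the number passing from 0 to 5 for antagonism DAPT, from 1 to 3 for A4, from 0 to 1 for A4 over DAPT and from 1 to 2 for JAG1 beads over A13. For A4 it was 2 after repeated quantile normalization or with trended, robust variance, and 0 with only the compared groups, with second-brightest probe sets or with every probe set tested. Leaving out low-intensity genes removes dim members, CCL20 among them, from the test. It left 0 for agonism DAPT, 1 for IgG over DMSO, 1 for A13 over IgG and 2 for A13 over DAPT. For JAG1 over Fc beads it left 1, and for the A13 and JAG1 difference 0. Only the compared groups gave 1 for agonism DAPT, 2 for IgG over DAPT, 1 for IgG over DMSO and 2 for JAG1 beads over A13, and quantile normalization or trended variance gave 2 for IgG over DAPT. Second-brightest probe sets gave 0 for agonism DAPT, IgG over DAPT, IgG over DMSO and the A13 and JAG1 difference. Without sets ending in _x_at or _s_at, which leaves CXCL8 with no value, the number was 1 for agonism DAPT, 0 for IgG over DAPT, 1 for IgG over DMSO, 1 for Fc beads over IgG and 0 for the A13 and JAG1 difference, and every probe set tested gave 1 for IgG over DMSO. With single arrays left out it ranged from 0 to 2 for A4, 1 to 2 for agonism DAPT, 0 to 1 for IgG over DAPT, 1 to 3 for IgG over DMSO, 2 to 3 for A13 over IgG, 2 to 4 for A13 over DAPT, 2 to 3 for Fc beads, 3 to 3 for JAG1 over Fc beads, and 0 to 1 for both differences of effects. Signs turned in other probe sets: CXCL2 to 0.0326 for agonism DAPT, -0.22 for A13 over IgG, -0.13 for A13 over DAPT and -0.29 for the A13 and JAG1 difference under both probe-set choices, and IL1A to 0.25 for agonism DAPT and 0.12 for IgG over DMSO. Over all genes the number passing moved from 70 to between 18 and 7600 for antagonism DAPT and from 20 to between 0 and 1787 for A4, the highest with array weights. For Fc beads over IgG 324 genes rose and 87 fell, against 302 and 198 after quantile normalization, and for JAG1 beads over A13 934 and 325, against 798 and 641. The cause was not tested. No paired analysis was possible because the labels carry no replicate numbers.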
